A study of Mus musculus with 107 samples.

Results

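Natural killer (NK) cell receptor genes were followed in mouse tumors before and during treatment with lenvatinib (LEN), an oral inhibitor of several receptor tyrosine kinases of the VEGF and FGF families. The set comprised the 8 genes of the table named Ncr1, Klrb1c, Klrk1, Klrd1, Klrc1, Klre1, Eomes and Il2rb, out of 50686 genes, and the rule that picks them uses gene names and no threshold on a value. RNA was sequenced from 107 subcutaneous tumors of 12 syngeneic models, that is, mouse cancer cell lines grown in immunocompetent mice. Cells were implanted at 7 weeks of age, and tumors were collected either at about 100 mm3 before any treatment (treatment-naive, 35 tumors) or on day 8. The day 8 tumors came from mice left without treatment (NT, 36 tumors) or given LEN at 10 mg/kg by mouth every day for 7 days (36 tumors). Every model had 3 tumors in each of these groups, except that treatment-naive MC38 had 2. Hosts were BALB/cAnNCrlCrlj for 6 models, which were BNL 1ME A.7R.1 (BNL, liver), RAG and Renca (kidney), 4T1 and EMT6 (breast) and CT26.WT (colon). They were C57BL/6NCrl for MC38 (colon) and B16-F10 (melanoma), C57BL/6JCrl for LL/2 (lung), C3H/HeNCrl for MBT2 (bladder), DBA/2NCrl for KLN205 (lung) and C57L/J for Hepa 1-6 (liver). Each model is a cell line, the hosts of the liver lines BNL and Hepa 1-6 were male and the others female, and the RAG cells had been adapted to growth in mice. The labels name no engineered allele in cells or hosts.

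NK cells are innate lymphocytes that kill tumor and infected cells when activating signals outweigh inhibitory ones. Ncr1 encodes the activating receptor NKp46 and Klrk1 the activating receptor NKG2D, which binds stress-induced ligands. Klrd1 encodes CD94, which pairs with NKG2A, the product of Klrc1, to form an inhibitory receptor for the nonclassical class I molecule Qa-1 (H2-T23). Klrb1c encodes NK1.1, the antigen by which NK cells are usually stained in C57BL/6 mice, and Klre1 encodes a further lectin-like receptor of the NK gene complex. Il2rb encodes the beta chain shared by the receptors for IL-2 and IL-15, the latter being the cytokine on which NK cells depend. Eomes encodes a T-box transcription factor of mature NK cells. None of these genes is limited to NK cells, since activated CD8+ T cells also express Klrk1, Klrd1, Klrc1, Il2rb and Eomes, and innate lymphoid cells express Ncr1 and Klrb1c.

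In GENCODE M21 on GRCm38, 5 of the 8 genes lie on chromosome 6 in the NK gene complex. Klre1 (129577905 to 129585827, plus strand), Klrd1 (129591782 to 129598775, plus), Klrk1 (129610323 to 129623864, minus) and Klrc1 (129666015 to 129678973, minus) are neighbours within 101.1 kb, and Klrb1c (128778485 to 128789215, minus) lies apart from them. Ncr1 is on chromosome 7 (4337724 to 4345164, plus), Eomes on chromosome 9 (118478212 to 118486132, plus) and Il2rb on chromosome 15 (78479256 to 78495271, minus). Klrc1 shared 38.6% of its transcript 50-mers with other genes, chiefly Klrc2, and Klrb1c shared 17%, chiefly with the overlapping gene model Gm44511 and the paralogs Klrb1a and Klrb1b, so the values of Klrc1 and Klrb1c depend on how reads were divided between such copies. For Eomes the share was 2.1% (an antisense gene, Gm33460, overlaps it), for Klre1 0.31%, and for the other 4 genes 0.

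Promoters of 6 of the 8 genes could be read from the RefSeq table of GRCm38.p6, and the 250 bases before the start are printed for Ncr1 and Klrb1c, whose ratio is compared between strains, for Klrk1, which rose with LEN in both B16-F10 and BNL, and for Eomes, whose levels follow another pattern. Capitals mark the letters TGTGGT on either strand (ACCACA on the other), the core bound by Runx factors.
Ncr1, chr7:4337474-4337723, plus strand: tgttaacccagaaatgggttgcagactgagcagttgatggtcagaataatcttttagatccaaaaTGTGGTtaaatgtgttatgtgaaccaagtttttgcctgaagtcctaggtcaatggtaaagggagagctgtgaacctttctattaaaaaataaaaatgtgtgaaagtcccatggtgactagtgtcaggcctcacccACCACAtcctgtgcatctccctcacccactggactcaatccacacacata
Klrb1c, chr6:128788642-128788891, minus strand: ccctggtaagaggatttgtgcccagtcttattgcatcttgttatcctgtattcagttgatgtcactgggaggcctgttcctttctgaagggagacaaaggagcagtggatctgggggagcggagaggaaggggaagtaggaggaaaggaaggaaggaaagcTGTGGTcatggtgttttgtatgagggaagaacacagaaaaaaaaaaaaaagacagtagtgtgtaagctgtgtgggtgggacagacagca
Klrk1, chr6:129623865-129624114, minus strand: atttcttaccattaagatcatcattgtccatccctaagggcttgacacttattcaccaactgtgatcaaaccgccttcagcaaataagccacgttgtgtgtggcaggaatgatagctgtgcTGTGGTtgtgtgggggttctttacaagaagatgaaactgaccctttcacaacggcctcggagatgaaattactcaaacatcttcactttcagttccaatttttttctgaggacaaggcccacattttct
Eomes, chr9:118477939-118478188, plus strand: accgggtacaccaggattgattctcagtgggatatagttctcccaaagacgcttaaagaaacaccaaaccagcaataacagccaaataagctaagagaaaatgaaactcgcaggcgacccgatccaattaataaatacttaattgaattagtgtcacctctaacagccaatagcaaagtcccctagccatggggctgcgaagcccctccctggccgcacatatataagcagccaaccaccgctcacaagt
In the full windows of that table, which also reach a short way past the start, TGTGGT was found in 6 of the 8 promoters listed for these genes (5 genes, all but Eomes), against 16.8% of 32851 mouse promoters. The T-box core GGTGTGA was found in 0 of the 8 (4% of all promoters), and the ETS core AGGAAG in 2 of the 8, those of Klrb1c and Klre1 (35.4% of all). These matches describe letters and are not measured binding sites.

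Levels are given as TPM, a measure of transcript abundance that is scaled by gene length and to the same total in every tumor, and tests were run on log2(TPM + 1), so fold changes of low genes are understated. A gene was called changed at a Benjamini-Hochberg adjusted p under 0.05 in limma over all genes tested. The p-values measure the spread between tumors of the same group, also for means over models. Only the strain tests and the fits on model differences measure the spread between models. The small RNAs Rn7s1, Rn7s2 and Rn7sk made up 13.6% to 38.6% of each tumor's TPM (median 22.9%), and results that move when the tumors are rescaled without them are given as such.

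In treatment-naive tumors the 8 genes were low to moderate, and their levels differed widely between models. Klrk1 ranged from 0.91 to 28.77 TPM (median 4.25, n = 35) and Il2rb from 0.31 to 37.58 TPM (median 3.78), and they were the highest of the 8 by median. Klrb1c (median 0.31) and Klre1 (median 0.29) were the lowest on this per-length scale. A difference between the 12 models was called for 8 of 8 genes by the limma F test, with adjusted p from 7.83e-13 for Eomes to 2.13e-07 for Klre1, but 86.1% of all genes tested differed as well. In bulk tumors fewer cells of a type and less RNA per cell cannot be told apart, and neither can NK cells and T cells that use the same gene.

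For the activating receptors, Ncr1 stood at 5.87, 7.10 and 3.79 TPM in CT26.WT, 7.84 and 3.38 in MC38, and 4.30, 5.14 and 3.97 in MBT2. These 3 models overlapped, and the lowest MBT2 tumor lay only just above the highest BNL tumor (3.96). Ncr1 was lowest in KLN205 (0.47, 0.50 and 0.11 TPM), which overlapped LL/2 and B16-F10. Klrk1 was highest in Hepa 1-6 at 15.88, 20.75 and 28.77 TPM, overlapping MC38 at 19.82 and 16.37, and lowest in KLN205 (mean 1.27). Of the 11 pairs of neighbours in the order of models, 2 did not overlap for Ncr1 and 1 for Klrk1.

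The inhibitory pair Klrd1 and Klrc1 was also led by Hepa 1-6, with 13.84, 15.60 and 22.25 TPM for Klrd1 and 12.06, 15.33 and 21.61 TPM for Klrc1. The latter lay above every other treatment-naive tumor, the next highest being 8.62 TPM in MC38. MC38 led for Klre1 (4.58 and 2.62 TPM) and Il2rb (27.04 and 31.45 TPM), with Hepa 1-6 next and overlapping for both genes. KLN205 had the lowest mean for Klrd1, Klrc1, Klre1 and Il2rb. For Klrd1 no pair of neighbours in the order stood apart, against 3 of 11 for Il2rb and 4 of 11 for Eomes.

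**Figure D1:**
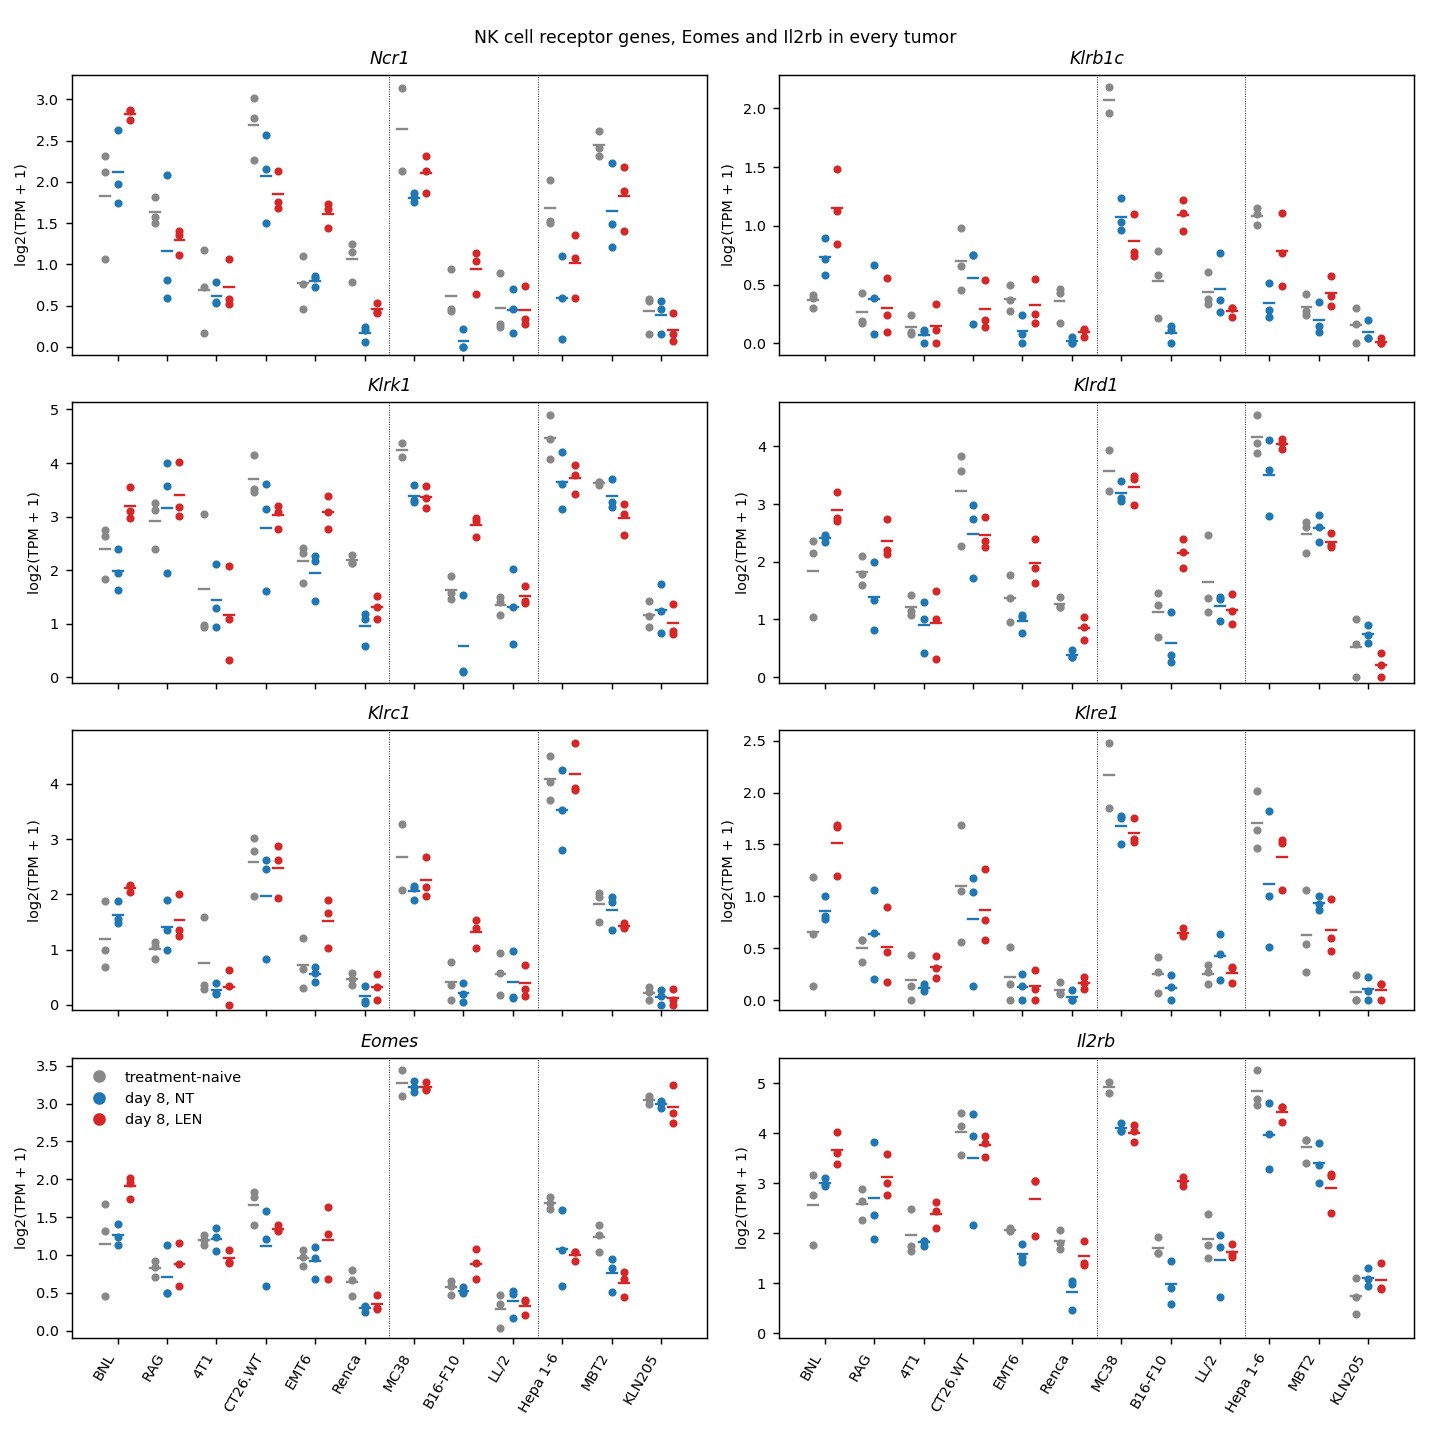
Each panel plots log2(TPM + 1) of 1 gene in every tumor (points) with the group mean (bar) for the 12 models, in grey for treatment-naive, blue for day 8 NT and red for day 8 LEN tumors, and dotted lines separate BALB/c hosts, C57BL/6 hosts and other hosts. Red points stand above blue points for most genes in B16-F10, BNL and EMT6, and Eomes stands apart from the other 7 genes in KLN205.

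Eomes did not follow the receptors. In KLN205, where treatment-naive means were 0.36 TPM for Ncr1, 0.497 for Klrd1 and 0.163 for Klrc1, Eomes was at 7.34, 6.98 and 7.55 TPM in treatment-naive tumors, 6.72, 7.19 and 7.05 in NT tumors and 8.49, 5.71 and 6.32 in LEN tumors. In MC38 it was at 9.85 and 7.61, then 8.32, 7.87 and 8.89, then 8.19, 8.73 and 8.06 TPM in the same order. These 17 tumors lay between 5.71 and 9.85 TPM, and the highest Eomes value of any other model was 3.06 TPM, in a BNL tumor given LEN. Over the 36 group means, Eomes had a Pearson r of 0.32 with Ncr1 and 0.25 with Klrd1, whereas Klrd1 had an r of 0.97 with Il2rb and 0.95 with Klrc1. Without KLN205 and MC38, a choice made after the values were seen, the r over the remaining 30 group means was 0.74 with Ncr1 and 0.63 with Klrd1. The group means share tumors' composition and scaling, so these correlations are descriptions. Whether tumor cells or host cells of KLN205 and MC38 carry the Eomes RNA was not tested.

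**Figure D2:**
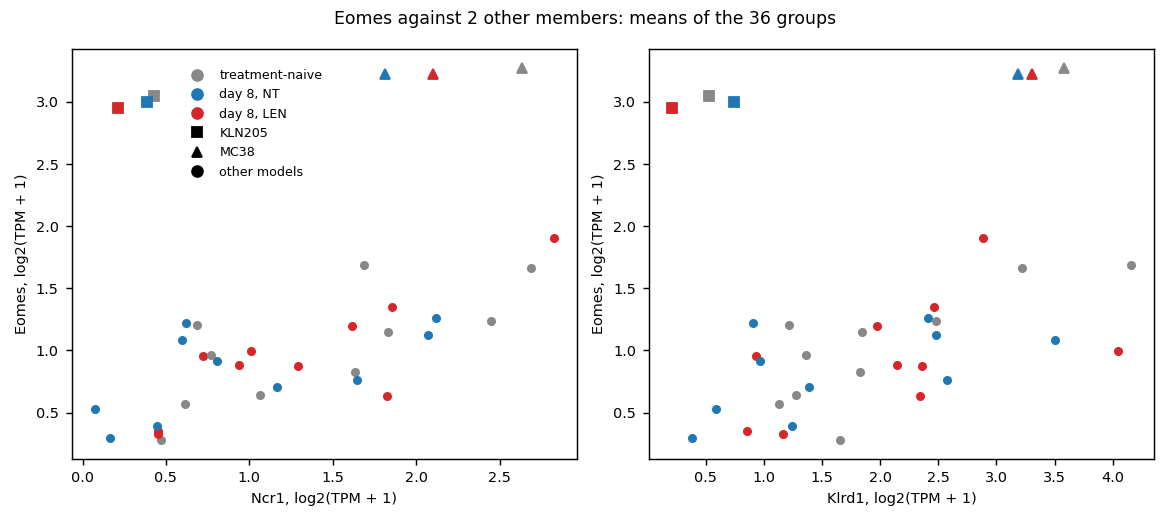
Group means of log2(TPM + 1) of Eomes are plotted against those of Ncr1 (left) and Klrd1 (right) for the 36 groups, colored by treatment, with squares for KLN205 and triangles for MC38. The 3 KLN205 means lie at high Eomes with low Ncr1 and Klrd1, the 3 MC38 means lie at high Eomes with higher Ncr1 and Klrd1, and the means of the other 10 models lie below both.

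The genes whose 36 group means were most like each member were sought among 25821 genes by Pearson r, again as a description. For Klrd1 they were Nkg7 (r = 0.98), Il2rb (0.97) and the T-box gene Tbx21 (0.96). For Klrc1 they were Nkg7 (0.97), Tbx21 (0.97) and Fasl (0.96), and for Il2rb Nkg7 (0.97), Klrd1 and the T cell receptor gene Trbc1 (0.97 each). For Klrk1 they were Fgl2 (0.97), Trbc1 and Ms4a4b (0.94), and for Klre1 Il2rb, Klrd1 and Sh2d2a (0.90 each). Ncr1 was most like Samd3 (0.93), Clnk (0.90) and the granzyme gene Gzma (0.89), and Klrb1c most like the Ly49 receptor genes Klra1 and Klra7 (0.86) and Klre1 (0.85). Eomes was most like Stc2 (0.93), Jph1 (0.89) and Gm21847 (0.88), none of which was among the 3 genes most like any other member.

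Klrb1c was examined by host strain, because NK1.1 differs between mouse strains. In treatment-naive C57BL/6 hosts, Klrb1c was at 3.53 and 2.90 TPM in MC38, where Ncr1 was at 7.84 and 3.38. In BALB/c hosts with CT26.WT it was at 0.98, 0.58 and 0.37 TPM, where Ncr1 was at 5.87, 7.10 and 3.79, so all of these Klrb1c values were below those of MC38 while Ncr1 overlapped. The other C57BL/6 models overlapped CT26.WT for Klrb1c, at 0.50, 0.72 and 0.16 TPM in B16-F10 and 0.52, 0.30 and 0.26 in LL/2. Ncr1 was lower in them than in CT26.WT, at 0.93, 0.37 and 0.35 TPM in B16-F10 and 0.86, 0.21 and 0.18 in LL/2. In C3H hosts with MBT2 Klrb1c was at 0.21, 0.34 and 0.18 TPM beside Ncr1 at 4.30, 5.14 and 3.97, and in C57L/J hosts with Hepa 1-6 at 1.14, 1.01 and 1.22 TPM beside Ncr1 at 1.89, 1.84 and 3.05. By mean TPM, Klrb1c was 57.3% of Ncr1 in MC38, 83.6% in B16-F10 and 86.4% in LL/2. In BALB/c hosts it was 9.78% in RAG, 10.4% in BNL, 11.5% in CT26.WT, 15.3% in 4T1, 25.8% in Renca and 41.2% in EMT6, all lower than in any C57BL/6 model. It was 5.44% in MBT2, 32.4% in KLN205 and 49.7% in Hepa 1-6.

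The test was made on the mean log2 of (Klrb1c + 1)/(Ncr1 + 1) per model, with the model as the unit. It averaged -0.23 (SD 0.295, n = 3) for C57BL/6 and -1.08 (SD 0.624, n = 6) for BALB/c, a difference of 0.85 with a two-sided exact permutation p of 0.0595 over 84 splits, so it did not pass 0.05. The ranges overlapped on this scale, from -0.57 to -0.03 against -1.99 to -0.39. With a pseudocount of 0.1 in place of 1 the difference was 1.85 and the exact permutation p 0.0238, and in day 8 NT tumors it was 0.62 with an exact permutation p of 0.119. For Klrb1c alone the C57BL/6 minus BALB/c difference was 0.64 (SE 0.328, 95% interval -0.09 to 1.38) with an adjusted p of 0.498 in limma on model means, and without MC38 it was 0.115. None of the 8 genes was called in that fit (0 at an unadjusted p under 0.05), beside 0.264% of all genes higher and 0.387% lower. The intervals of the other 7 genes ran from -1.55 to 1.96, so differences of these sizes were not excluded. Cell line and host strain cannot be told apart with this set of models, and colon was the only tumor type in both BALB/c and C57BL/6 hosts. The reads were mapped to a reference of C57BL/6 origin, whose part in the lower values of other strains was not tested. A related gene singled out after its values were seen, the Ly49H receptor gene Klra8, was listed at 0 TPM in all 72 tumors of BALB/c, C3H and DBA/2 hosts and above 0 in 14 of 17 tumors of C57BL/6NCrl, 6 of 9 of C57BL/6JCrl and 3 of 9 of C57L/J hosts.

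**Figure D3:**
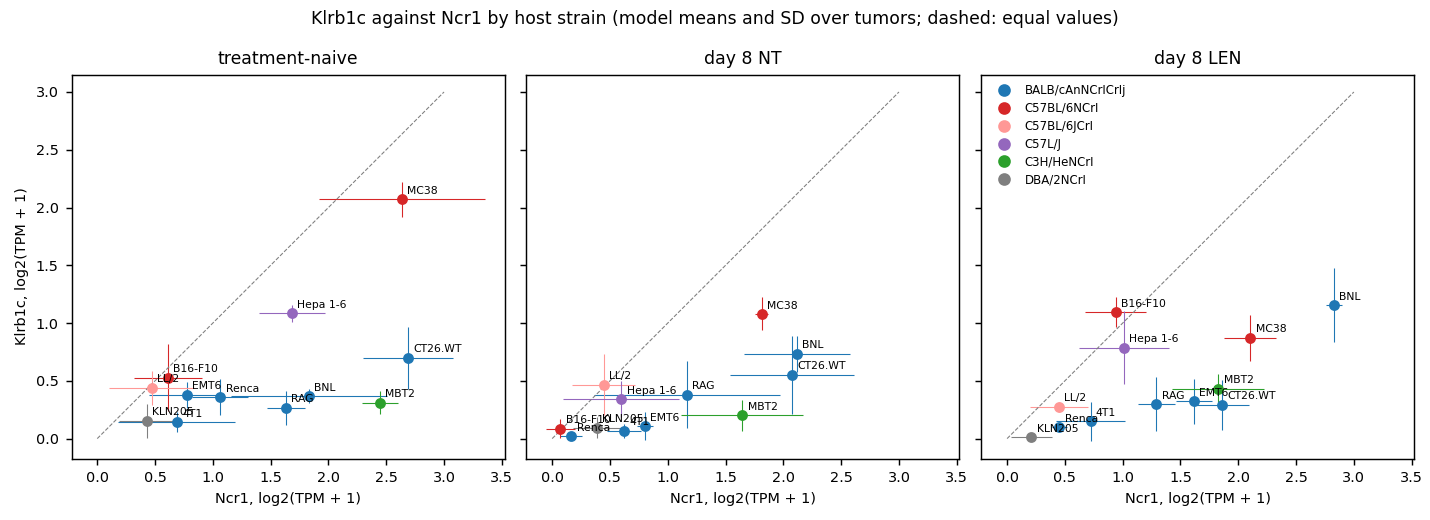
Model means of log2(TPM + 1) of Klrb1c are plotted against those of Ncr1 in treatment-naive, day 8 NT and day 8 LEN tumors, colored by host strain, with bars of 1 SD over tumors and a dashed line of equal values. In the treatment-naive panel B16-F10 and LL/2 lie nearest the line, KLN205, EMT6, 4T1 and MC38 follow with differences from -0.28 to -0.57, and CT26.WT and MBT2 lie farthest below it.

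The comparison of day 8 NT with treatment-naive tumors asks how the genes moved as tumors grew without drug. Averaged over the 12 models, 6 of the 8 genes fell and 0 rose, where 11.4% of all genes were called lower and 11.7% higher, and the same 6 had an unadjusted p under 0.05. Klrk1 fell by 0.47 on the log2 scale (SE 0.131, limma adjusted p = 0.00613), Ncr1 by 0.42 (SE 0.0908, 0.000466) and Il2rb by 0.37 (SE 0.112, 0.0122). Klrd1 fell by 0.33 (adjusted p = 0.0168 in limma), Klrb1c by 0.22 (5.93e-05) and Eomes by 0.17 (0.0311). Klrc1 had a difference of -0.20 (95% interval -0.41 to 0.0058, limma adjusted p = 0.161) and Klre1 of -0.08 (-0.22 to 0.07, 0.493). The called genes were lower in 10 of 12 models for Ncr1 and Klrk1 and in 9 of 12 for the other 4. Among the models with lower values was Renca, with Ncr1 at 0.73, 1.22 and 1.38 TPM in treatment-naive and 0.04, 0.18 and 0.15 in NT tumors, and Klrk1 at 3.41, 3.88 and 3.40 against 1.13, 0.50 and 1.27. All 3 NT tumors of Renca lay below all 3 treatment-naive ones for both genes. BNL went the other way for some genes, with Klrb1c at 0.23, 0.33 and 0.31 TPM in treatment-naive and 0.50, 0.65 and 0.86 in NT tumors without overlap. Mean Klrd1 in BNL was 2.86 and 4.32 TPM in the same order. Klrk1 was lower in NT tumors in BNL too, with means of 4.5 and 3.06 TPM and overlapping tumors. The call of Eomes was lost without any 1 of 4 tumors (treatment-naive BNL replicate 3 and MC38 replicate 2, NT CT26.WT replicate 5 and Hepa 1-6 replicate 3, adjusted p up to 0.0553 in limma) and without CT26.WT, MBT2, Hepa 1-6 or Renca (up to 0.103). Without Renca 3 of the 6 were called, and in limma on the 12 model differences, where each model counts once, 0 were called and 6 had an unadjusted p under 0.05 (adjusted p 0.163 to 0.362), but that fit called 0 of all 25687 genes lower. Ptprc, which marks all leukocytes, fell by 0.35 (limma adjusted p = 0.0014), 5 of 10 T cell markers fell and 0 rose (median -0.26, against -0.27 for the 8 members), and 4 of 5 endothelial markers fell (median -0.21). Their part in these differences was not tested. Rescaled by the upper quartile, 1500 genes were called higher and 4651 lower, and without the small RNAs Rn7s1, Rn7s2 and Rn7sk 1570 and 4357, against 3002 and 2917 as deposited.

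The comparison of LEN with NT on day 8 shares its NT tumors with the comparison just given. Averaged over the 12 models, 6 of the 8 genes rose and 0 fell, where 10.7% of all genes were called higher and 7.56% lower, and the same 6 had an unadjusted p under 0.05. The median difference of the 8 genes was 0.31 on the log2 scale, against 0.00043 for all genes tested. Among activating receptors, Klrk1 rose by 0.39 (SE 0.121, limma adjusted p = 0.0155, higher in 8 of 12 models) and Ncr1 by 0.28 (SE 0.0761, 0.00474, 10 of 12). In the inhibitory pair, Klrd1 rose by 0.36 (SE 0.0815, limma adjusted p = 0.000748, 8 of 12) and Klrc1 by 0.33 (SE 0.0889, 0.00525, 9 of 12). Il2rb rose the most, by 0.48 (SE 0.106, limma adjusted p = 0.000495, 9 of 12), and Klrb1c by 0.14 (SE 0.044, 0.0202, 7 of 12). Klre1 had a difference of 0.10 (95% interval -0.02 to 0.23, limma adjusted p = 0.261) and Eomes of 0.10 (-0.02 to 0.21, 0.263). All 6 calls held whichever of the 72 tumors was left out. Rescaled by the upper quartile, 2648 genes were called higher and 3417 lower, and without the 3 small RNAs 2069 and 3497, against 2747 and 1938 as deposited.

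**Figure D4:**
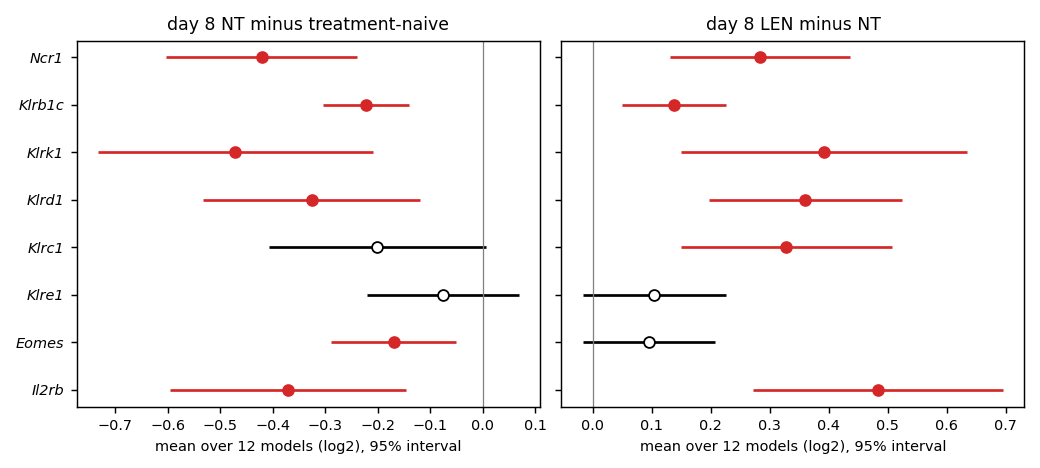
Points give the limma difference averaged over 12 models, in log2 units, with its 95% interval, for day 8 NT minus treatment-naive (left) and LEN minus NT on day 8 (right), and filled red points have an adjusted p under 0.05. The 6 called genes on the left lie between -0.47 and -0.17 and the 6 on the right between 0.14 and 0.48.

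The LEN effect differed between models for 4 of the 8 genes by the limma F test, beside 28.7% of all genes. They were Klrb1c (adjusted p = 0.000119 in limma), Klrd1 (0.00102), Klrk1 (0.0079) and Il2rb (0.0142), and the other 4 had values from 0.147 to 0.210. Without B16-F10, the 3 genes Ncr1, Klrd1 and Il2rb were called in the mean over models. Without B16-F10 and BNL, left out together after the values were seen, 0 were called higher by limma (4 at an unadjusted p under 0.05, adjusted p 0.103 to 0.968, 4.09% of all genes), and 0 differed between the remaining models by the limma F test (2 at an unadjusted p under 0.05, 10.3% of all genes). In limma on the 12 model differences 0 were called higher, 4 had an unadjusted p under 0.05, the median difference of the 8 genes was 0.31 as before, and 0.449% of all genes were called higher. Fitted model by model, 90 pairs of gene and model could be tested, of which 11 were called higher and 0 lower in limma (25 and 1 at an unadjusted p under 0.05), where 2.57% of all such pairs were called higher and 0.874% lower. All 11 were in B16-F10 or BNL.

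In B16-F10 melanoma, 7 of the 8 genes rose with LEN and 8 of 8 had all LEN tumors above all NT tumors, where 6.48% of genes were called higher and 19.3% had LEN tumors all above NT. Il2rb was at 0.87, 1.70 and 0.50 TPM in NT and 7.68, 6.74 and 7.19 in LEN tumors, a difference of 2.06 on the log2 scale (SE 0.225, limma adjusted p = 0.00592). Klrk1 was at 0.07, 1.90 and 0.08 TPM in NT and 6.87, 6.56 and 5.18 in LEN tumors, a difference of 2.26 (SE 0.397, 0.0218). Il2rb and Klrk1 thus had LEN tumors close to each other, while 1 NT tumor (replicate 4) lay well above the other NT tumors for Klrk1.

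Ncr1 in B16-F10 was listed at 0, 0.16 and 0 TPM in NT and at 0.56, 1.05 and 1.21 in LEN tumors, a difference of 0.87 (SE 0.165, limma adjusted p = 0.0271). Klrb1c was at 0, 0.08 and 0.11 TPM in NT and 1.16, 0.94 and 1.33 in LEN tumors, a difference of 1.01 (SE 0.124, limma adjusted p = 0.00727). The LEN tumors overlapped treatment-naive B16-F10 for Ncr1 (0.93, 0.37 and 0.35 TPM) and lay above it for Klrb1c (0.50, 0.72 and 0.16 TPM). Klrd1 was at 0.20, 1.18 and 0.30 TPM in NT and 3.49, 2.69 and 4.24 in LEN tumors (1.56, SE 0.265, limma adjusted p = 0.0199), and Klrc1 at 0.14, 0.31 and 0.04 against 1.91, 1.64 and 1.04 (1.11, SE 0.177, 0.0163). Klre1 was at 0, 0.18 and 0.09 TPM in NT and 0.62, 0.53 and 0.56 in LEN tumors (0.53, SE 0.112, limma adjusted p = 0.0376). NT replicate 4 was again the highest NT tumor for these genes except Klrb1c. Eomes was at 0.43, 0.49 and 0.41 TPM in NT and 0.86, 0.60 and 1.12 in LEN tumors, a difference of 0.36 that was not called (95% interval 0.02 to 0.69, limma adjusted p = 0.193).

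The same number of genes, 7, was called in B16-F10 after rescaling by the upper quartile or without the 3 small RNAs, although the latter moved the calls over all genes from 1463 higher and 325 lower to 1227 and 1048. Leaving out a tumor left 6 of the 7 called without NT replicate 4, 3 without any 1 LEN tumor, and 2 without NT replicate 2 or 5. Other leukocyte genes moved with these genes. Ptprc went from 2.61, 7.00 and 2.71 TPM to 24.9, 23.6 and 23.3. Of 10 T cell markers 8 rose, their sum going from between 2.38 and 5.84 TPM in NT to between 17.3 and 21.9 in LEN tumors, and of 6 macrophage markers 5 rose (80.9 to 110.9 against 212.6 to 277 TPM). The T cell gene Cd3e was at 0.35, 1.44 and 0.14 TPM in NT and 5.28, 3.12 and 3.85 in LEN tumors. Endothelial markers fell for 3 of 5 (24.4 to 32.5 against 13.0 to 14.5 TPM). The part of T cells and of all leukocytes in the higher NK receptor values was not tested.

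In BNL, 4 of the 8 genes rose and 7 of 8 had LEN tumors all above NT tumors, where 19.9% of genes were called higher and 33.5% had LEN tumors all above NT. Klrk1 was at 2.09, 4.24 and 2.84 TPM in NT and 7.59, 6.83 and 10.69 in LEN tumors, a difference of 1.22 (SE 0.239, limma adjusted p = 0.0123). Eomes was at 1.2, 1.66 and 1.36 TPM in NT and 2.35, 2.87 and 3.06 in LEN tumors, a difference of 0.64 (SE 0.152, 0.0243), and this was the only model with Eomes called. Il2rb (6.89, 7.54 and 6.70 against 9.38, 11.08 and 15.34 TPM) rose by 0.66 (limma adjusted p = 0.0336) and Klre1 (1.00, 0.72 and 0.75 against 2.21, 1.29 and 2.17 TPM) by 0.65 (0.0424). In each of these 4 genes the LEN tumors lay above the NT tumors without overlap.

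Ncr1 in BNL was at 2.36, 5.18 and 2.94 TPM in NT and 6.34, 5.70 and 6.28 in LEN tumors (0.71, 95% interval 0.16 to 1.26, limma adjusted p = 0.068), the highest Ncr1 group among day 8 tumors. Klrd1 and Klrc1 also did not overlap but were not called (limma adjusted p = 0.0744 and 0.0655), and Klrb1c overlapped (0.175). All genes of BNL had a median difference of 0.15, and after rescaling by the upper quartile, which moved that median to 0.0089 and the calls over all genes from 4658 higher and 879 lower to 2482 and 1873, only Klrk1 was called. Rescaled without the 3 small RNAs, 2 of the 8 were called, with 3529 genes higher and 1172 lower. Leaving out a tumor kept between 1 and 3 of the 4 calls, 1 of them without NT replicate 1 or 4. Ptprc went from 30.7, 34.1 and 34.4 TPM to 46.6, 54.9 and 67.8, and 7 of 10 T cell markers rose (sum 7.03 to 10.9 against 22.3 to 27.6 TPM), whereas 5 of 5 endothelial markers fell (102.6 to 120 against 37.5 to 44.2 TPM). Their part in the NK receptor values was not tested.

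EMT6 had 5 of 8 genes with LEN tumors all above NT tumors, where 12.9% of genes did, but limma called 0 of the 7 tested (5 at an unadjusted p under 0.05), and 0.304% of all genes were called higher there. Ncr1 was at 0.65, 0.78 and 0.81 TPM in NT and 2.33, 1.71 and 2.18 in LEN tumors (0.81, limma adjusted p = 0.11). Klrk1 was at 3.83, 1.69 and 3.48 TPM in NT and 9.51, 5.82 and 7.49 in LEN tumors (1.13, limma adjusted p = 0.143). The differences were 1.01 for Klrd1, 0.97 for Klrc1 and 1.10 for Il2rb (limma adjusted p = 0.139, 0.160 and 0.206), of a size near those in BNL or above. Ptprc overlapped in EMT6, at 29.7, 26.8 and 35.9 TPM in NT and 49.8, 26.7 and 39.1 in LEN tumors. T cell markers were higher in sum (4.46 to 6.72 TPM in NT against 8.88 to 20.88 in LEN tumors, median difference 0.67), with Cd8a at 0.56, 0.57 and 0.78 against 1.73, 1.21 and 2.08 TPM without overlap. Neutrophil markers were too (112.9 to 154.6 against 178 to 291 TPM, median 0.91), and like the members these markers were not called by limma in EMT6. Their part in the NK receptor values was not tested.

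In Renca, Ncr1 was at 0.04, 0.18 and 0.15 TPM in NT and 0.33, 0.34 and 0.44 in LEN tumors (0.29, limma adjusted p = 0.124), still below the treatment-naive tumors of that model (0.73 to 1.38). Klrd1 and Il2rb also had LEN tumors above NT tumors without being called (adjusted p = 0.0711 and 0.0901 in limma), as did Klre1, which was too low to be tested there, so 4 of 8 genes stood above NT beside 12.1% of all genes, and 3.48% of all genes were called higher. In the same fit of Renca 3 of 10 T cell markers rose and 1 fell (sum 5.25 to 7.19 TPM in NT against 8.97 to 11.09 in LEN tumors), and 2 of 4 neutrophil markers rose (14.28 to 15.11 against 29.27 to 39.25 TPM). Ptprc fell by 0.87 (34.54 to 35.52 against 17.52 to 19.37 TPM), and so did 5 of 6 macrophage markers (1035 to 1205 against 578.9 to 618.7 TPM) and 5 of 5 endothelial markers, and the part of these cells in the NK receptor values of Renca was not tested. In RAG Klrd1 stood above NT without overlap (1.53, 2.99 and 0.77 against 3.58, 5.67 and 3.39 TPM), and in 4T1 Il2rb and Klre1 did, where 4.51% and 4.59% of all genes did so, and none of the 3 was called by limma (Klrd1 and Il2rb had an unadjusted p under 0.05). In MC38, LL/2, MBT2, CT26.WT and Hepa 1-6 every member overlapped between LEN and NT, and 0 were called by limma (0 at an unadjusted p under 0.05). The median difference of the members was -0.24 in MBT2 and 0.43 in Hepa 1-6, where the median over all genes was 0.12. The sole member below NT without overlap was Klrd1 in KLN205, at 0.66, 0.50 and 0.88 TPM in NT and 0, 0.34 and 0.15 in LEN tumors (-0.53, limma adjusted p = 0.276), where 11.2% of all genes stood below NT. With 3 tumors in each group of a model, small effects were not detectable at this spread.

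**Figure D5:**
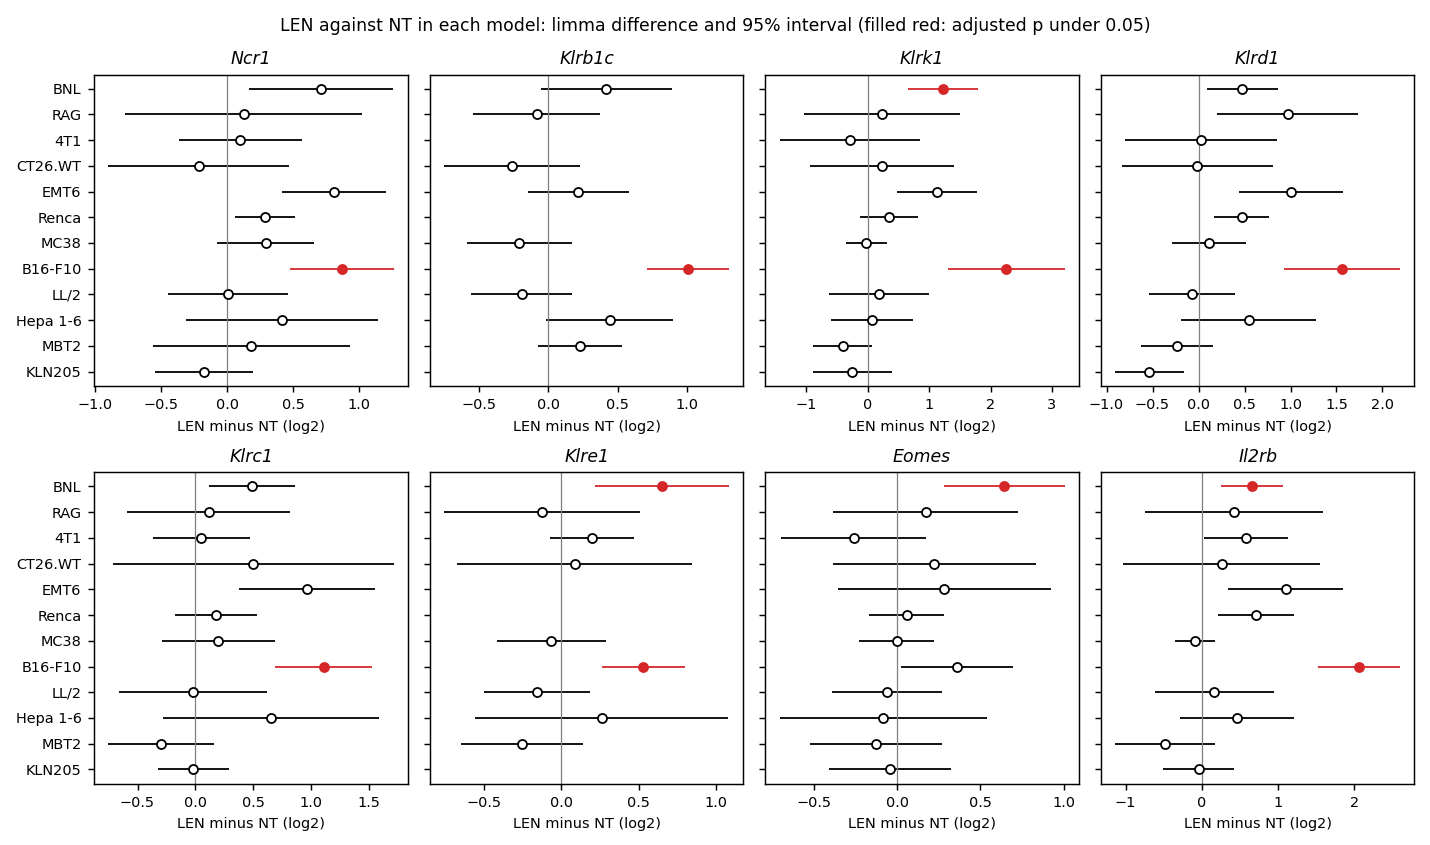
Each panel gives, for 1 gene, the limma difference LEN minus NT (log2 units) with its 95% interval in each of the 12 models, filled red where the adjusted p is under 0.05, and pairs too low to be tested have no point. The 11 red points are 7 in B16-F10, where Klrk1 reaches 2.26, and 4 in BNL.

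Genes that work with these receptors were counted in the same fit of LEN against NT over 12 models. Of 17 tested Ly49 and other lectin-like receptor genes of the NK gene complex 4 rose and 0 fell, among them Klrc2, the activating partner of Klrd1, by 0.28 (limma adjusted p = 0.000479, higher in 11 of 12 models), Klri2, a partner of Klre1, by 0.11 (0.00273) and Klrb1b by 0.23 (0.0341). Klrb1a, Klrb1f and Klrc3 had differences of 0.13, 0.13 and 0.15 that were not called. Of 12 other NK receptor genes 3 rose and 0 fell, with Tigit, an inhibitory receptor, at 0.35 (limma adjusted p = 0.00023). Of 12 adaptor and signaling genes 3 rose and 1 fell, as Cd247 rose by 0.31 and Sh2d1b1 fell by 0.21, while Tyrobp, the adaptor of several activating receptors, had a difference of -0.05 (limma adjusted p = 0.649).

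Of 11 transcription factor genes 2 rose and 0 fell, namely Nfil3, needed for NK cell development, by 0.40 in 12 of 12 models (limma adjusted p = 1.4e-08) and Id2 by 0.30 in 11 of 12 (0.000631). Tbx21, the other T-box gene of NK cells, had a difference of 0.14 (limma adjusted p = 0.129), near that of Eomes. Of 12 genes for IL-2 and IL-15 receptor partners and NK cytokines 5 rose and 0 fell, including Il18r1 by 0.47 (3.44e-08) and Il2ra by 0.51 (5.05e-08). The common chain Il2rg and Il15 had differences of 0.15 and 0.06 that were not called (limma adjusted p = 0.290 and 0.708), unlike Il2rb. Of 12 cytotoxic effector and chemokine genes 6 rose and 0 fell, including Ccl4 by 0.68, Ccl3 by 0.66 and Prf1, the perforin gene, by 0.50 (limma adjusted p = 0.00274), and Gzma had 0.32 with an adjusted p of 0.0583.

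Of 11 tested ligand genes 4 rose and 1 fell. H2-T23, the Qa-1 ligand of the receptor encoded by Klrd1 and Klrc1, rose by 0.60 (limma adjusted p = 8.18e-06, higher in 10 of 12 models), Clec2d by 0.25 and Pvr, a ligand of Tigit, by 0.24. In B16-F10 H2-T23 went from a mean of 15.7 to 97.3 TPM (2.74 on the log2 scale, limma adjusted p = 0.0238). The medians of the lists were 0.12 for lectin-like receptors, 0.38 for effectors and -0.01 for ligands, beside 0.00043 for all genes and 0.31 for the 8 members. T cell markers moved with the members, since 8 of 10 rose and 0 fell (median 0.32), Cd3e by 0.47 (limma adjusted p = 0.000915) and Cd8a by 0.32 (0.00714). Ptprc had a difference of 0.05 (limma adjusted p = 0.779), and its own LEN effect differed between models (1.41e-06). Of 5 neutrophil markers 4 rose and 0 fell (median 0.47), of 6 macrophage and monocyte markers 1 rose and 3 fell (median -0.29), and 5 of 5 endothelial markers fell (median -0.85). The part of these cell types in the mean change of the 8 genes was not tested. At day 8 without drug, 10 of 12 adaptor genes and 8 of 12 cytokine and receptor partner genes fell against treatment-naive tumors and 0 rose, and Gzma fell by 0.90, whereas Nfil3 rose by 0.30. In that comparison 11.4% of all genes were called lower and 11.7% higher, while limma on the 12 model differences called 0 of 25687 genes lower.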

How the data were processed

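Per the labels and the methods, the authors depleted ribosomal RNA, trimmed reads with Trimmomatic 0.36, mapped them with STAR 2.5.2b to the mouse genome (mm10, GRCm38) and estimated expression with RSEM 1.2.31. They deposited a table of TPM for 50686 genes in 107 tumors, and 0 columns of per-sample values stayed without a sample. TPM keeps no depth, so the depth and counting precision of each tumor are unknown. The instrument used for each tumor was not given in the sources used here. A value of 0 may be a failed estimate.

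Values were analyzed as log2(TPM + 1) where a gene's TPM averaged 0.1 or more in the tumors fitted. The tools were R 4.3.3 with the packages data.table (1.17.8) and limma 3.58.1 (a linear model moderated with trend=TRUE), with Benjamini-Hochberg adjustment over all genes at 0.05. LEN and NT were compared over 72 tumors as 24 groups (mean over models, and an F test of 11 contrasts between models) and in 12 separate fits. NT was compared with treatment-naive tumors likewise, over 71 tumors. Strains were compared on model means, and the ratio of Klrb1c to Ncr1 by an exact permutation test. Python 3.11.15, numpy 2.4.6, pandas 2.3.3, scipy 1.17.1 and matplotlib 3.10.9 were used.

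The 8 members, the 14 other gene lists and the tests were chosen with earlier results of these data known. Genes named are the members, up to 3 genes per list with the smallest adjusted p for LEN, a fixed group of related genes, and the 3 genes most like each member. Some listed genes (Cd244a, H60a, Raet1a, Raet1b and Raet1c) were not analysed here. Positions are from GENCODE M21 and promoters from RefSeq. Alternatives were a pseudocount of 0.1, a minimum of 1 or no minimum, upper-quartile rescaling, rescaling without Rn7s1, Rn7s2 and Rn7sk, no trend, the replicate number as a block, limma on the 12 model differences, and leaving out each tumor or model. The tumor titles give the replicate numbers. On simulated data with 200 changed genes among 25636, the mean over models recovered 93.5% of changes of 0.5 and 98.5% of changes of 1 on the log2 scale, and 5.08% and 7.94% of the genes called were not changed ones. In B16-F10 alone, among 22573 genes, 0% of changes of 0.5 and 58% of changes of 1 were recovered. Within a simulation every change had the same size. The rates for the mean over models therefore do not cover effects that differ between models, as those of LEN did for Klrb1c, Klrd1, Klrk1 and Il2rb. The rates were not split by expression level, so they may not hold for low genes such as Klrb1c.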

Additional observations from a re-analysis of the deposited data

Results flagged for a closer look

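The effect of LEN differed between the 12 models for 4 of the 8 genes, by the limma F test of 11 contrasts with adjustment over all genes. For Klrb1c the adjusted p was 0.000119, with differences from -0.26 in CT26.WT to 1.01 in B16-F10. For Klrd1 it was 0.00102, from -0.53 in KLN205 to 1.56 in B16-F10. For Klrk1 it was 0.0079, from -0.41 in MBT2 to 2.26 in B16-F10, and for Il2rb 0.0142, from -0.48 in MBT2 to 2.06 in B16-F10. B16-F10 held the highest value of each of the 4 genes, and 28.7% of all genes tested passed the same test.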

How the results depend on the processing

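Some calls of the mean over models depended on which models entered. The number of genes called higher with LEN was 3 without B16-F10, and 0 in limma on the 12 model differences (4 at an unadjusted p under 0.05). Without B16-F10 and BNL together, an alternative added after seeing the data, 0 were called higher (4 at an unadjusted p under 0.05) and 0 differed between models by the limma F test (2 at an unadjusted p under 0.05). Klrb1c was also lost without BNL (limma adjusted p = 0.0865) or Hepa 1-6 (0.0807) and Klrk1 without BNL (0.0984) or EMT6 (0.0756). For day 8 NT against treatment-naive tumors, 3 were called lower without Renca and 0 in limma on the 12 model differences (6 at an unadjusted p under 0.05), a fit that called 0 of all 25687 genes lower. Eomes was also lost there without CT26.WT, MBT2 or Hepa 1-6 (limma adjusted p up to 0.103), without any 1 of 4 tumors (up to 0.0553) and with a pseudocount of 0.1. Of the pairs of gene and model, 6 were called higher at a minimum mean TPM of 1, which left 56 pairs to test and only 7 of the 11 called ones (Klre1 in BNL was tested and lost its call), and between 6 and 11 without any 1 tumor, with 6 without B16-F10 NT replicate 2 or 5. The genes whose LEN effect differed between models numbered 3 to 5 when 1 tumor was left out, with 3 without B16-F10 NT replicate 5.

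Samples with the same replicate number did not deviate together (r over 0.1 in 0 of 20 pairs of LEN and NT and 0 of 25 pairs of NT and treatment-naive tumors), so they share only a number. With the replicate number as a block, 2 members were called lower on day 8, and the genes called went from 4685 to 2875 for LEN, from 7368 to 2481 for its difference between models and from 5919 to 2314 for day 8. Klre1 then had a LEN difference of -0.0522, and Ncr1 had 0.14 and was not called (limma adjusted p = 0.179).

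The strain difference in Klrb1c relative to Ncr1 was 1.85 with a pseudocount of 0.1 (two-sided exact permutation p = 0.0238), and 0.668 to 1.02 without any 1 model (exact permutation p 0.0536 to 0.179). Among single strain differences, none of which was called, the sign changed for Eomes (-0.0266 with a pseudocount of 0.1), Klrc1 (-0.0897 with that pseudocount, -0.00113 without the 3 small RNAs, -0.104 in day 8 NT), Il2rb (-0.058 in day 8 NT) and Klrk1 (0.42 with Hepa 1-6 added to the C57BL/6 models). Without any 1 model they ranged from -0.65 to 0.85 for Eomes, -0.71 to 0.89 for Il2rb, -0.64 to 0.50 for Klrc1, -0.40 to 0.82 for Klrd1, -0.21 to 0.75 for Klre1, -1.01 to 0.44 for Klrk1 and -0.90 to 0.18 for Ncr1, and from 0.115 (without MC38) to 0.931 for Klrb1c, which kept its sign. Over all single members and alternatives, 1626 values kept their direction and side of the threshold, 85 kept only their direction and 19 changed sign. Most of these values came from fits that left out 1 tumor, and differences that were never called also counted as kept. The tally therefore says little about the fits on model differences or without whole models. The causes were not tested. Unknown depth limits what can be said of values near 0 TPM.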
